A study of Mus musculus with 16 samples.

Results

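The genes for cystine import and for the making, recycling and breakdown of glutathione were followed through RNA sequencing of mIMCD3 cells, a line derived from the inner medullary collecting duct of the mouse kidney. The 7 genes were Slc7a11, Gclc, Gclm, Gss, Gsr, Ggct and Ggt1, 7 of 55367 gene symbols in the count tables. They were chosen by name for these roles, with earlier results of these data known. All 7 passed the filter on low counts and so belonged to the 19509 genes tested. Each of 8 conditions was sequenced in 2 biological replicates, 16 libraries in all. WT cells received the solvent DMSO or 10 µM sulforaphane (SFN), an activator of the transcription factor Nrf2, for 5 h. They were sampled at the end of this pretreatment under isosmotic conditions, or after a change to hyperosmotic medium (600 mOsm) for 1 h or 6 h. Nrf2-/- cells, made with CRISPR/Cas9 in the same line, received SFN in each of the 4 libraries analysed here and were sampled before and 1 h after the change of medium. The study checked the knockout by Western blot, and the number of clones behind these libraries is not given in the sources used here. Nrf2-/- cells with DMSO were not analysed here, so an SFN effect in Nrf2-/- cells could not be computed, and effects of Nrf2 loss cannot be told apart from other differences between the lines. Isosmotic libraries were taken at the end of pretreatment, so hyperosmolality and the added hours after pretreatment cannot be told apart either.

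Glutathione is the main small thiol of the cell, and its supply is usually limited by cysteine. Slc7a11 is the light chain of the exchanger that brings in cystine for glutamate. Gclc and Gclm form glutamate-cysteine ligase, which makes the first and rate-limiting bond, and Gss adds glycine. Gsr returns oxidized glutathione to its reduced form with NADPH. Ggct acts on gamma-glutamyl amino acids inside the cell, and Ggt1 cleaves glutathione outside it. Slc7a11, Gclc, Gclm and Gsr are textbook targets of Nrf2, which binds antioxidant response elements (AREs), and Slc7a11 is also a textbook target of ATF4, the transcription factor of the amino acid and integrated stress responses.

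The promoters of Slc7a11 and Gclm are shown because these genes parted in Nrf2-/- cells. Promoter windows, from 250 bases before to 50 after the annotated start, came from RefSeq on GRCm38.p6 and were found for 5 of the 7 genes; Gclc and Gsr had no entry. Capitals mark matches on either strand to an ARE core, TGACNNNGC, or to the composite site bound by ATF4 with a C/EBP partner, TGATGNAA. The Slc7a11 window lies at chr3:50443564-50443863 on the minus strand and the Gclm window at chr3:122245307-122245606 on the plus strand.
Slc7a11: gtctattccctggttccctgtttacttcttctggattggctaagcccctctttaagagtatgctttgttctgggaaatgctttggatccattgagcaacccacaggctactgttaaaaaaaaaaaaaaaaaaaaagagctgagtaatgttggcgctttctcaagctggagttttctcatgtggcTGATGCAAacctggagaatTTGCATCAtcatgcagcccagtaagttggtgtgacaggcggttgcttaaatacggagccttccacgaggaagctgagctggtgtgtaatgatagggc
Gclm: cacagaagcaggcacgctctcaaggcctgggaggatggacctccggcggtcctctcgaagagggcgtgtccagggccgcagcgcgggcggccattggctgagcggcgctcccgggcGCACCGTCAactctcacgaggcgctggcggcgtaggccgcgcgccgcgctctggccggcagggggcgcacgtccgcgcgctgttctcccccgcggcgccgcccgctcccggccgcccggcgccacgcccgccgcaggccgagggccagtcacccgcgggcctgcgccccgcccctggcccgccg
The Slc7a11 window held 2 ATF4 composite matches, at 66 to 59 and at 47 to 40 bases before the start and on opposite strands, and 0 ARE core matches. The Gclm window held 1 ARE core match on its minus strand, at 134 to 126 bases before the start, and 0 ATF4 composite matches. Among all 32851 promoter windows, 12.4% held at least 1 ARE core match, 3.97% held at least 1 ATF4 composite match and 0.07% held 2 or more of the latter. Of the remaining windows, that of Gss held neither motif, that of Ggct held 2 ARE core matches, and 3 of 4 windows of Ggt1 held 1 each. These matches describe letters within 300 bases and say nothing about sites elsewhere or about binding.

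Total counts per library ranged from 34484296 to 50774875. The biological coefficient of variation between the 2 libraries of a condition lay between 0.0393 and 0.128 in 7 conditions and reached 0.348 in Nrf2-/- cells with SFN at 1 h, whose libraries stood apart from each other. Results of the 7 genes that rest on this pair are therefore given with each of its libraries left out where a call changed. For the further genes and regulators below, no values with a library left out are given. Nfe2l2, the gene for Nrf2, lay at 64 to 149 CPM (counts relative to library size after TMM scaling) in the 12 WT libraries and at 11 to 11.6 CPM in the 4 Nrf2-/- libraries. Of 13 markers of collecting duct epithelium, 11 were detected, with Aqp2 and Avpr2 near 0, and their summed level was 2340 to 5380 CPM. Single markers differed between the lines under isosmotic conditions with SFN: Cdh16 stood at 20.1 and 21 CPM in Nrf2-/- against 202 and 199 CPM in WT cells, and Epcam at 264 and 304 against 50.3 and 47.3 CPM. Their part in the Nrf2-/- results below was not tested. The summed levels of proximal tubule, fibroblast, endothelial and leukocyte markers stayed at or under 40.6, 7.1, 5.79 and 8.37 CPM. The highest of these values were in 6 h libraries. Leukocyte markers summed to 6.55 to 8.37 CPM there against 0.0185 to 0.177 CPM in isosmotic WT cells, with Cd3e at or near 0, and proximal tubule markers to 37.9 to 40.6 CPM against 10.1 to 14.2 CPM. Their part in the 6 h results below was not tested.

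Levels were compared between genes only after division by the length of all annotated exons (GENCODE M21), and the annotation behind the counts may differ. In isosmotic WT cells with DMSO, Gsr was the most abundant, at 78.4 ± 3.59 CPM per kb (SD, n = 2). Gclm followed at 28.1 ± 0.787 and Gclc at 20.2 ± 0.845 CPM per kb. Gss stood at 5.6 ± 0.203 CPM per kb. Ggct (0.896 ± 0.0968), Slc7a11 (0.54 ± 0.117) and Ggt1 (0.2 ± 0.0819 CPM per kb) were the lowest of the 7 genes. Neighbours in this order did not overlap between libraries. In Nrf2-/- cells with SFN, Slc7a11 had moved past Gss, at 5.07 ± 0.284 against 2.69 ± 0.0717 CPM per kb under isosmotic conditions.

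**Figure D1:**
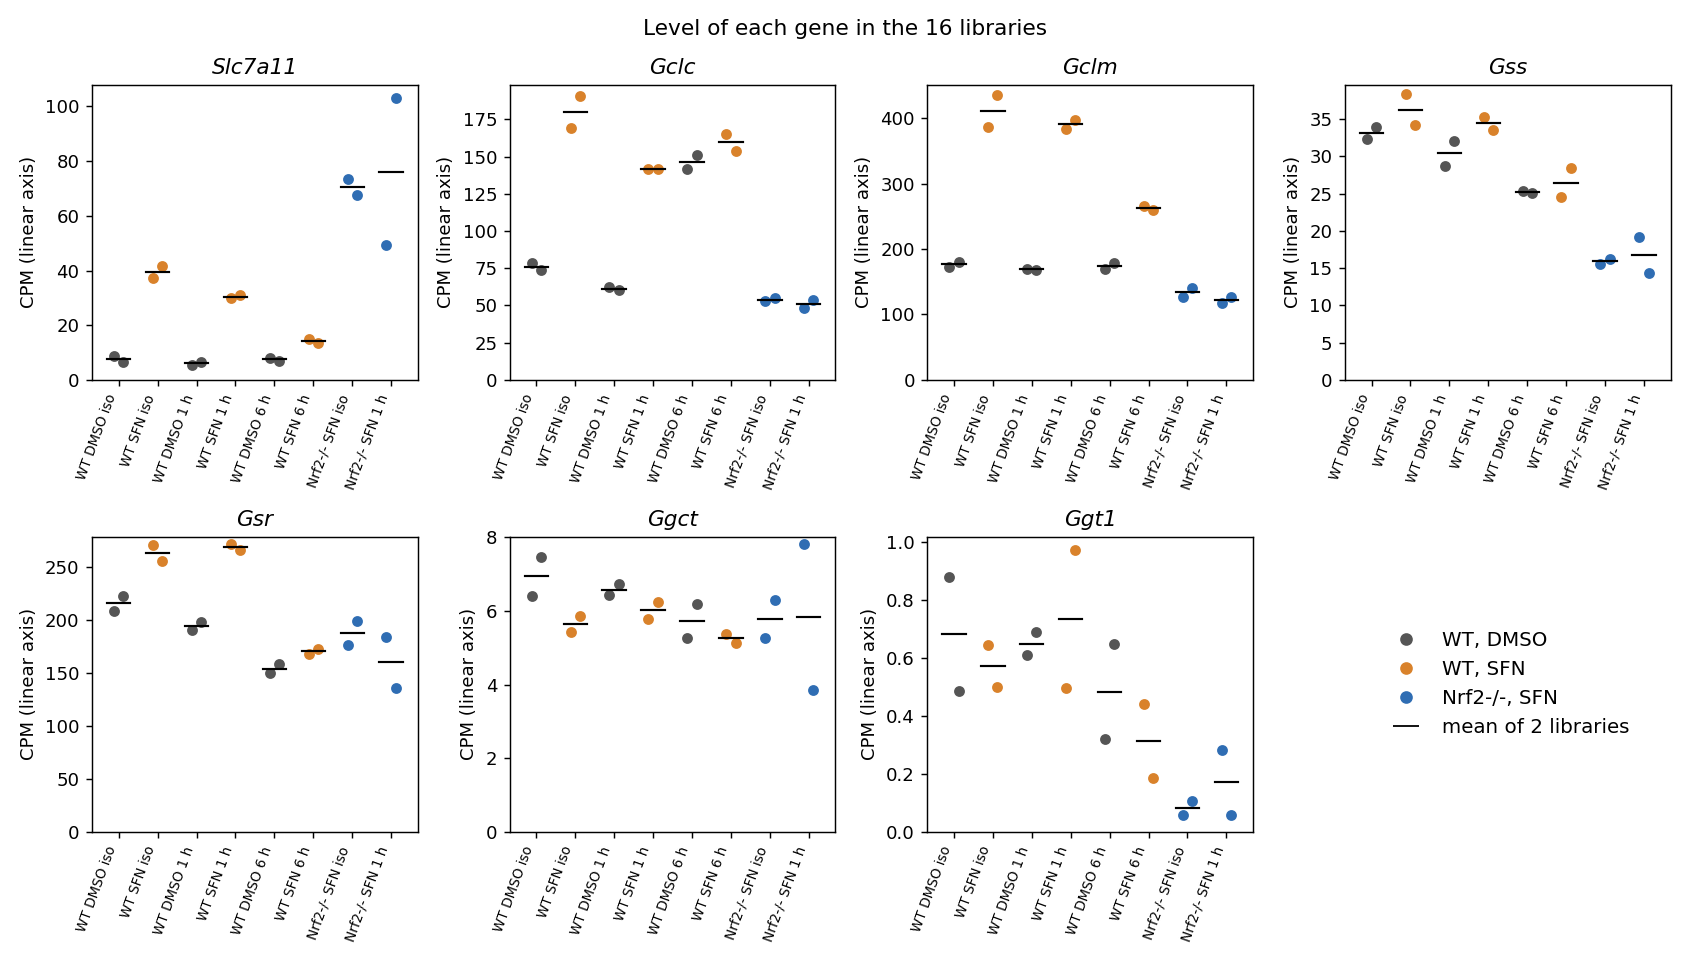
Level of each gene (CPM, linear axis from 0) in the 16 libraries; points are libraries, bars are means of 2, grey is WT with DMSO, orange WT with SFN, blue Nrf2-/- with SFN, and iso means isosmotic. Slc7a11 was highest in the Nrf2-/- libraries (49.3 to 103 CPM), whereas Gclc, Gclm, Gss and Ggt1 had their lowest means there.

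SFN raised the importer and both subunits of the ligase. In bulk RNA, fewer cells with a transcript and less of it per cell cannot be told apart. Under isosmotic conditions 3 of the 7 genes were called (edgeR quasi-likelihood test, Benjamini-Hochberg adjusted p under 0.05), all 3 higher with SFN, against a background of 2.84% of all tested genes. After 1 h of hyperosmotic stress the same 3 genes were called higher, against a background of 0.0923%. After 6 h only Gclm was called, against a background of 0.041%. The median log2 fold change of the 7 genes was 0.29, 0.47 and 0.12 at these times, and the median over all tested genes was 0.00 each time.

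Slc7a11 was low in WT cells with DMSO, at 8.67 and 6.37 CPM under isosmotic conditions, 5.57 and 6.54 CPM after 1 h and 8.06 and 7.01 CPM after 6 h. With SFN it stood at 37.3 and 41.5 CPM, 29.8 and 31.1 CPM, and 14.9 and 13.4 CPM at the same times. At each time both SFN libraries lay above both DMSO libraries, and the gap narrowed by 6 h. Slc7a11 rose 5.25-fold under isosmotic conditions (log2 fold change 2.39, SE 0.26, edgeR adjusted p = 0.00012) and 5.03-fold after 1 h (2.33, SE 0.27, adjusted p = 0.00129). Without replicate 1 of WT DMSO at 1 h the latter had adjusted p = 0.0846 at a log2 fold change of 2.22. The 6 h value was 0.91 (95% interval 0.34 to 1.48, edgeR adjusted p = 1), which did not pass. It passed in fits without the Nrf2-/- 1 h pair (adjusted p = 0.00115), with only the 12 WT libraries (0.00545), with only the libraries compared (0.0014) and with no filter (0.000472).

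Gclc, the catalytic subunit, stood at 78.4 and 73.9 CPM in isosmotic DMSO libraries, 62.5 and 60.1 CPM after 1 h and 142 and 151 CPM after 6 h. With SFN it stood at 169 and 191 CPM, at 142 CPM in both libraries, and at 165 and 154 CPM at the same times. The SFN libraries were higher throughout, yet at 6 h the DMSO libraries had nearly reached them. SFN raised Gclc 2.37-fold under isosmotic conditions (log2 fold change 1.24, SE 0.10, edgeR adjusted p = 5.96e-06) and 2.32-fold after 1 h (1.21, SE 0.10, adjusted p = 2.35e-05). After 6 h the log2 fold change was 0.12 (95% interval -0.08 to 0.32, edgeR adjusted p = 1).

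Gclm, the modifier subunit that lowers the ligase's Km for glutamate, stood at 173 and 180 CPM in isosmotic DMSO libraries, 170 and 168 CPM after 1 h and 170 and 179 CPM after 6 h. With SFN it stood at 387 and 435 CPM, 383 and 398 CPM, and 266 and 259 CPM. With TMM scaling its level without SFN was therefore flat over time, and both SFN libraries lay above both DMSO libraries at each time. Relative to total counts, without TMM, the DMSO libraries read 181 and 185 CPM under isosmotic conditions. They read 180 and 178 CPM after 1 h and 155 and 163 CPM after 6 h, so the flat course depended on the scaling. SFN raised Gclm 2.33-fold under isosmotic conditions (log2 fold change 1.22, SE 0.09, edgeR adjusted p = 5.96e-06), 2.31-fold after 1 h (1.21, SE 0.09, adjusted p = 2.35e-05) and 1.5-fold after 6 h (0.59, SE 0.09, adjusted p = 0.043). The 6 h call was lost when any 1 of the 4 libraries compared was left out (log2 fold change 0.55 to 0.62).

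The remaining genes were not called with SFN in the edgeR fit of all 16 libraries. Gsr stood at 209 and 223 CPM with DMSO and 271 and 256 CPM with SFN under isosmotic conditions, and at 191 and 198 CPM against 272 and 266 CPM after 1 h. Both SFN libraries were higher at both times, and after 6 h its log2 fold change was 0.15. Its isosmotic and 1 h log2 fold changes of 0.29 (SE 0.12, edgeR adjusted p = 0.269) and 0.47 (SE 0.12, adjusted p = 0.575) did not pass in the 16-library fit. Without the Nrf2-/- 1 h pair they were 0.29 (adjusted p = 0.00753) and 0.47 (adjusted p = 0.000565). DESeq2 on all 16 libraries also called the 1 h value (0.47, DESeq2 adjusted p = 0.0271). So did edgeR with only the 12 WT libraries (adjusted p = 0.000313) and with only the libraries compared (9.83e-12). The isosmotic value was called with only the 12 WT libraries (0.31, edgeR adjusted p = 0.0021), but not with DESeq2 or only the libraries compared. Gss had log2 fold changes of 0.13, 0.18 and 0.07 at the 3 times, Ggct of -0.30, -0.13 and -0.12, and Ggt1 of -0.26, 0.18 and -0.61, none of which passed. The intervals reached up to 0.47 for Gss and 0.43 for Ggct and down to -0.23 and -0.83, and for Ggt1, at 6 to 39 counts per WT library, they ran from -2.10 to 1.53 and leave changes of several fold undetectable at this depth.

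**Figure D2:**
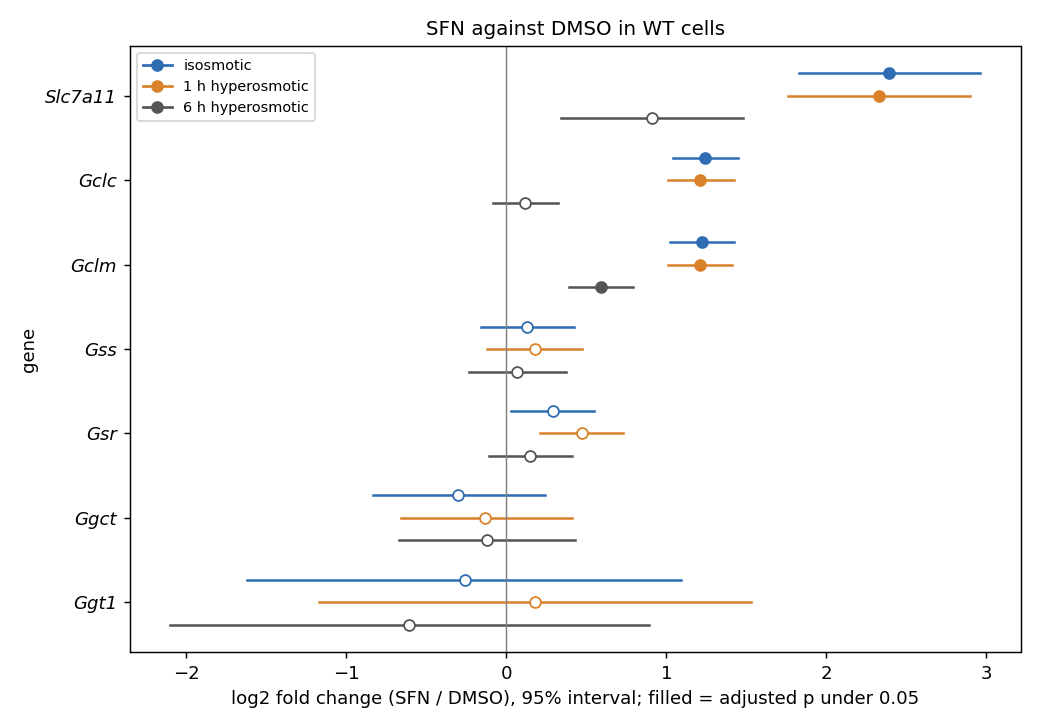
Log2 fold change of SFN against DMSO in WT cells (horizontal axis) for each gene (vertical axis) in isosmotic medium and at 1 h and 6 h of hyperosmotic stress; points are edgeR estimates from 2 against 2 libraries, lines are 95% intervals and filled points have adjusted p under 0.05. Slc7a11, Gclc and Gclm had values of 1.21 to 2.39 at the first 2 times and 0.12 to 0.91 at 6 h.

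Whether the SFN effect itself differed with stress was tested as a difference of differences. Between 1 h and isosmotic conditions 0 of the 7 genes differed, against a background of 0.559%, and none had an unadjusted p under 0.05; DESeq2 also called 0. The differences for Slc7a11, Gclc and Gclm were -0.06 (95% interval -0.84 to 0.72), -0.03 (-0.32 to 0.26) and -0.01 (-0.29 to 0.27). Between 6 h and isosmotic conditions 2 of the 7 genes differed, against a background of 0.759%. The SFN effect was smaller at 6 h by a log2 difference of -1.12 for Gclc (SE 0.13, edgeR adjusted p = 0.000576) and of -0.63 for Gclm (SE 0.13, adjusted p = 0.0387). The Gclm call was lost when any 1 of the 8 libraries involved was left out (-0.72 to -0.54). Slc7a11 had the largest point estimate of the 7 genes, -1.48 (SE 0.37), but did not pass (edgeR adjusted p = 0.106) in the 16-library fit. It passed with DESeq2 (adjusted p = 0.0145) and without the Nrf2-/- 1 h pair (adjusted p = 7.38e-06).

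The 2 ligase subunits reached this point by different routes. Between isosmotic conditions and 6 h, Gclc rose in DMSO libraries and Gclm did not. Over the same span Gclm fell from its SFN level in SFN libraries and Gclc changed little. At 1 h Gclc was lower than under isosmotic conditions with either pretreatment, as given below. The ratio of Gclm to Gclc counts within a library, which needs no scaling between libraries, was 2.21 and 2.43 in isosmotic DMSO libraries, 2.29 and 2.28 with SFN, and 2.4 and 2.58 in Nrf2-/- cells. After 1 h it was 2.72 and 2.8 with DMSO, 2.69 and 2.81 with SFN, and 2.46 and 2.35 in Nrf2-/- cells. By 6 h the DMSO libraries gave 1.19 and 1.18 and the SFN libraries 1.61 and 1.68, the 4 lowest values of the 16 libraries. Per kb of exon the 6 h ratios spanned 0.707 to 0.715 with DMSO and 0.964 to 1 with SFN, against 1.33 to 1.68 in the other libraries. By these lengths Gclm exceeded Gclc in the other 12 libraries and not at 6 h. Which transcript was in excess depends on the lengths used, whereas the fall in the count ratio does not.

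**Figure D3:**
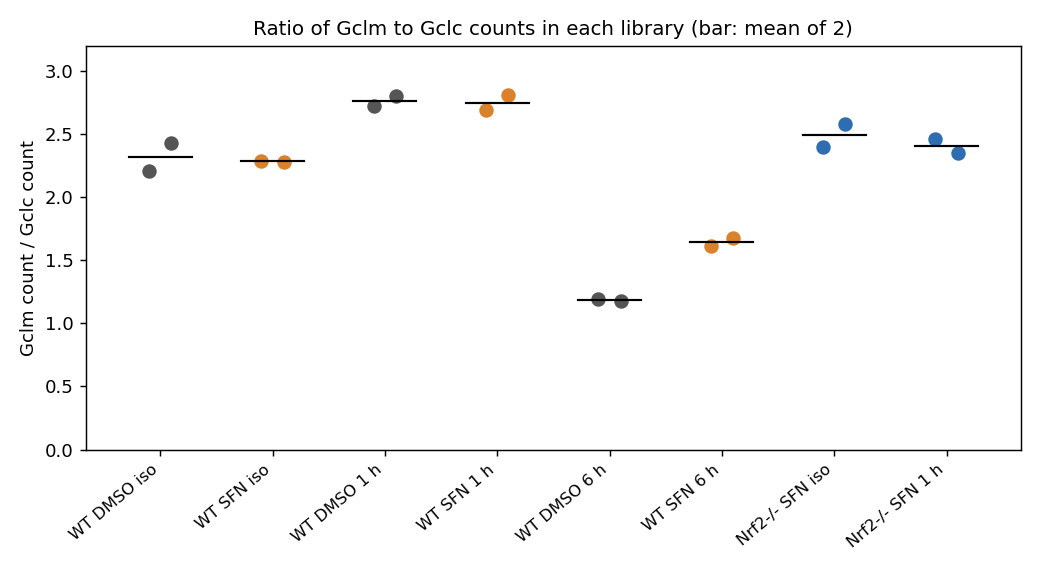
Ratio of Gclm to Gclc counts (vertical axis from 0) in each library by condition; points are libraries, bars are means of 2, and iso means isosmotic. The 6 h libraries sit at 1.18 to 1.68 and all other libraries at 2.21 to 2.81.

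After 1 h of hyperosmotic stress 0 or 1 of the 7 genes was called per comparison, near the share of all tested genes called. In WT cells with DMSO 1 of the 7 genes was called, against a background of 11.2%, and in WT cells with SFN 1 of 7, against 9.52%. Both calls were Gclc, which fell by 0.31 (SE 0.10, edgeR adjusted p = 0.0489) and by 0.34 (SE 0.09, adjusted p = 0.0337) on the log2 scale. The first was lost when any 1 of the 4 libraries compared was left out and the second when either 1 h library or replicate 2 of isosmotic SFN was left out, with values of -0.36 to -0.27 and -0.35 to -0.25. Gclm moved by -0.06 and -0.07 in the same fits, with intervals from -0.27 to 0.13. In Nrf2-/- cells with SFN 0 of the 7 genes were called, against a background of 7.17%; none had an unadjusted p under 0.05 and DESeq2 also called 0.

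The Nrf2-/- response to 1 h of stress rested on libraries that did not agree. Slc7a11 stood at 73.4 and 67.8 CPM in isosmotic Nrf2-/- cells and at 49.3 and 103 CPM after 1 h, so that 1 stressed library lay below both isosmotic ones and the other above. Its log2 fold change was 0.11 (SE 0.24), and it was 0.54 (adjusted p = 0.00331) without replicate 1 and -0.52 (adjusted p = 0.0106) without replicate 2 of the 1 h pair. Gsr, at 176 and 199 CPM against 184 and 136 CPM, was called lower (-0.47, adjusted p = 0.000339) without replicate 1. The difference of the 1 h effect between Nrf2-/- and WT cells with SFN was called for 0 of the 7 genes, against a background of 0.123%; none had an unadjusted p under 0.05 and DESeq2 also called 0. Without replicate 1 of the Nrf2-/- 1 h pair it was called for Slc7a11 (0.92, adjusted p = 0.000876) and Gsr (-0.50, adjusted p = 0.00551).

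After 6 h of stress Gclc was the only one of the 7 genes called higher, with DMSO; its change differed between DMSO and SFN by the test of the difference given above, which is the same contrast. In WT cells with DMSO 3 of the 7 genes were called against isosmotic conditions, where 45.9% of all tested genes were. Gclc rose 1.93-fold (log2 fold change 0.95, SE 0.10, edgeR adjusted p = 2.13e-06). Gss, at 32.3 and 34 CPM before and 25.3 and 25.1 CPM after, fell by 0.39 (SE 0.14, edgeR adjusted p = 0.0307), a call lost when any 1 of the 4 libraries was left out (-0.44 to -0.36). Gsr, at 209 and 223 CPM before and 150 and 158 CPM after, fell by 0.48 (SE 0.12, adjusted p = 0.00471). Slc7a11 (0.00, 95% interval -0.57 to 0.58) and Gclm (-0.02, -0.22 to 0.18) gave values close to 0.

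With SFN, 4 of the 7 genes were called after 6 h, where 47.6% of all tested genes were, and all 4 were lower than under isosmotic conditions. Slc7a11 fell 2.78-fold (log2 fold change -1.48, SE 0.25, edgeR adjusted p = 0.000286), Gclm 1.57-fold (-0.65, SE 0.09, adjusted p = 5.38e-05) and Gsr 1.54-fold (-0.63, SE 0.12, adjusted p = 0.000714). Gss, at 38.4 and 34.2 CPM before and 24.5 and 28.5 CPM after, fell 1.37-fold (-0.45, SE 0.14, adjusted p = 0.0144), a call lost without replicate 1 of either condition (-0.38 to -0.36). Gclc moved by -0.17 (95% interval -0.38 to 0.03). The shares of 3 and 4 of 7 genes are near the shares of all genes called at this time.

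The 6 h libraries were also compared with those at 1 h, so that these values share libraries with the ones above. With DMSO 2 of the 7 genes were called, against a background of 42.4%: Gclc rose 2.4-fold (log2 fold change 1.26, SE 0.10, edgeR adjusted p = 1.44e-07) and Gsr fell by 0.34 (SE 0.12, adjusted p = 0.0391), the latter call lost without any 1 of the 4 libraries (-0.38 to -0.30), while Gss was not called (-0.27, adjusted p = 0.134). With SFN 4 of the 7 genes were called lower, against a background of 42.6%. Slc7a11 fell 2.15-fold, Gsr 1.58-fold, Gclm 1.49-fold and Gss 1.3-fold, and the Gss call was lost without replicate 1 or 2 at 1 h or replicate 1 at 6 h (-0.43 to -0.28).

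Slc7a11 and 5 of the other genes differed in opposite directions between Nrf2-/- and WT cells. Under SFN and isosmotic conditions 6 of the 7 genes differed between Nrf2-/- and WT cells, 1 higher and 5 lower, where 34.1% of all tested genes were called. After 1 h the same 6 genes differed in the same directions, against a background of 31.5%. Slc7a11 was the gene that was higher, Gclc, Gclm, Gss, Gsr and Ggt1 were lower, and Ggct had values of 0.03 and -0.04. The median log2 fold change of the 7 genes was -1.19 and -1.04, beside 0.00 and -0.02 over all tested genes.

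Slc7a11 in Nrf2-/- cells, at 49.3 to 103 CPM in 4 libraries, lay above every WT library, of which the highest read 41.5 CPM. Under isosmotic conditions it was 1.79-fold higher than in WT cells with SFN (log2 fold change 0.84, SE 0.25, edgeR adjusted p = 0.0162). Leaving out any 1 of the 4 libraries ended this call, with values of 0.76 to 0.92 and adjusted p of 0.054 to 0.117. After 1 h it was 2.5-fold higher (1.32, SE 0.25, edgeR adjusted p = 0.000967), a call lost with only the libraries compared (1.33, adjusted p = 0.0986). It was called without either Nrf2-/- library, at a log2 fold change of 1.77 without replicate 1 and of 0.70 without replicate 2. Against WT cells with DMSO, Slc7a11 was 9.4-fold higher under isosmotic conditions (3.23, SE 0.27, edgeR adjusted p = 4.98e-07) and 12.6-fold higher after 1 h (3.66, SE 0.28, adjusted p = 2.03e-07). The latter was 4.11 without replicate 1 and 3.03 without replicate 2 of the Nrf2-/- 1 h pair. Since there were no Nrf2-/- libraries with DMSO here, how much of this level was present without SFN was not tested.

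The ligase subunits were lower in Nrf2-/- cells than in WT cells of either pretreatment. Gclc stood at 53 and 54.7 CPM under isosmotic conditions and 48.1 and 53.6 CPM after 1 h, and Gclm at 127 and 141 CPM and at 118 and 126 CPM, below every WT library in each case. Gclc was 3.34-fold lower than in WT cells with SFN under isosmotic conditions (log2 fold change -1.74, SE 0.10, edgeR adjusted p = 4.98e-09) and 2.79-fold lower after 1 h (-1.48, SE 0.10, adjusted p = 3.04e-08). Gclm was 3.06-fold lower (-1.61, SE 0.10, adjusted p = 8.32e-09) and 3.2-fold lower (-1.68, SE 0.10, adjusted p = 6.66e-09).

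Gss and Gsr, not called with SFN in the edgeR fit of all 16 libraries, were lower as well. Gss stood at 15.6 and 16.2 CPM under isosmotic conditions and 19.2 and 14.3 CPM after 1 h, below every WT library (24.5 CPM or more). It was 2.28-fold lower than in WT cells with SFN (log2 fold change -1.19, SE 0.14, edgeR adjusted p = 1.22e-05) and 2.05-fold lower after 1 h (-1.04, SE 0.14, adjusted p = 5.01e-05). Gsr was 1.41-fold lower (-0.49, SE 0.12, edgeR adjusted p = 0.00583), a call lost without replicate 1 of isosmotic Nrf2-/- cells (-0.41, adjusted p = 0.0737), and 1.68-fold lower after 1 h (-0.75, SE 0.12, adjusted p = 0.000276). With only the libraries compared, the 1 h value of Gsr did not pass (adjusted p = 0.0929).

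Of the breakdown genes, Ggt1 was close to the limit of detection. It had 2 and 4 counts in isosmotic Nrf2-/- libraries and 10 and 2 after 1 h, against 24 and 27 and 19 and 39 counts in WT cells with SFN. The fitted log2 fold changes were -2.74 (SE 0.80, edgeR adjusted p = 0.0158) and -2.09 (SE 0.72, adjusted p = 0.04). The first was lost without either Nrf2-/- library or replicate 1 of WT SFN (-3.25 to -2.37), and the second without replicate 2 of either condition (-1.52 to -1.37) with the replicate number as a block (-2.13, adjusted p = 0.0508) and with only the libraries compared (-2.08, adjusted p = 0.187), while it was -3.59 without replicate 1 of the Nrf2-/- pair. Ggct stood at 5.26 and 6.29 CPM and at 7.82 and 3.86 CPM in Nrf2-/- cells against 5.14 to 7.47 CPM in the 12 WT libraries. It was not called in any of the 17 comparisons with all 16 libraries, and without replicate 1 of the Nrf2-/- 1 h pair it was called lower than in WT cells with SFN (-0.63, adjusted p = 0.0346).

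Against WT cells with DMSO, which differ from the Nrf2-/- libraries in genotype and in pretreatment, 5 of the 7 genes were called under isosmotic conditions, where 38.8% of all tested genes were, and 4 of 7 after 1 h, where 31.4% were. Slc7a11 was the gene called higher, as given above. Gss was lower by 1.06 (SE 0.14, edgeR adjusted p = 3.58e-05) and 0.86 (SE 0.14, adjusted p = 0.000275) on the log2 scale, in decreases of 2.08-fold and 1.81-fold. Gclc gave -0.50 (SE 0.10, edgeR adjusted p = 0.000848) and -0.27 (SE 0.10, adjusted p = 0.0447), and Gclm -0.40 (SE 0.09, adjusted p = 0.0036) and -0.47 (SE 0.09, adjusted p = 0.00142). Several of these calls did not hold in other fits. Gclm under isosmotic conditions was lost without replicate 1 of isosmotic Nrf2-/- cells (-0.33). Gclc after 1 h was lost without replicate 1 of the Nrf2-/- pair (-0.18) or either DMSO library (-0.30 to -0.25). It was also lost with DESeq2 (DESeq2 adjusted p = 0.0818). In edgeR it was lost with RLE size factors (adjusted p = 0.114), no filter (0.163), the replicate block (0.0563) and only the libraries compared (0.328). With only the libraries compared, the 1 h calls of Gclm (edgeR adjusted p = 0.13) and Gss (0.0725) were lost too. Ggt1 was called lower under isosmotic conditions (-3.00, SE 0.80, adjusted p = 0.00792) but not without replicate 1 of either condition (-2.63 to -2.51). These comparisons share the Nrf2-/- libraries with those against WT cells with SFN. Gsr gave -0.20 (95% interval -0.46 to 0.06) and -0.28 (-0.54 to -0.02) and was not called in the 16-library fit. Without the Nrf2-/- 1 h pair its isosmotic value was called (-0.19, adjusted p = 0.0332). Without replicate 1 of that pair the 1 h values of Gsr (-0.50, adjusted p = 3.08e-05), Ggct (-0.75, 0.0109) and Ggt1 (-3.41, 0.0115) were called lower, and Ggt1 was also called with no filter (-1.91, 0.0473).

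**Figure D4:**
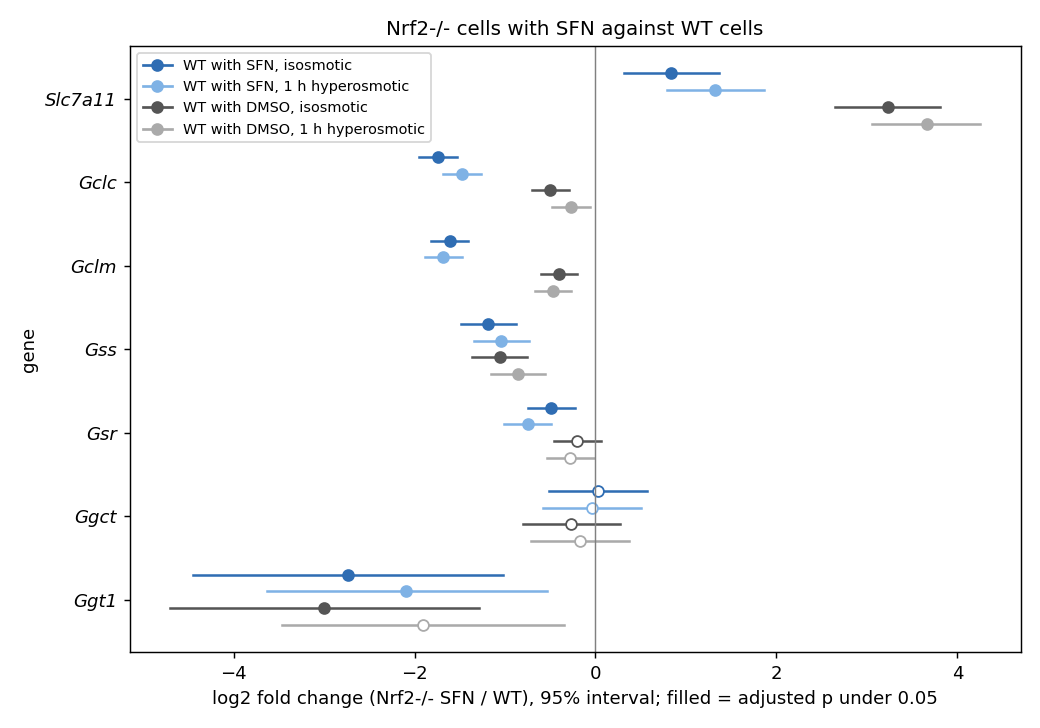
Log2 fold change of Nrf2-/- cells with SFN (horizontal axis) for each gene (vertical axis) against WT cells with SFN (blue) or with DMSO (grey), under isosmotic conditions and after 1 h; points are edgeR estimates from 2 against 2 libraries, lines are 95% intervals and filled points have adjusted p under 0.05. Slc7a11 lies at 0.84 to 3.66 and Gclc, Gclm and Gss at -1.74 to -0.27.

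The 26 further genes of cystine and cysteine supply, gamma-glutamyl metabolism and glutathione use were listed by function, and all 26 were tested. With SFN under isosmotic conditions 3 of 26 were called, all higher, where 2.84% of all tested genes were called. Chac1, which degrades glutathione inside the cell and is a textbook ATF4 target, stood at 6.22 and 7.12 CPM with DMSO and 28.3 and 24.3 CPM with SFN (log2 fold change 1.98, SE 0.20, edgeR adjusted p = 4.21e-05). Slc1a4, a transporter of neutral amino acids, rose by a log2 fold change of 0.84 (SE 0.11, adjusted p = 0.000528). Esd, which hydrolyses S-formylglutathione, rose by 0.61 (SE 0.11, adjusted p = 0.005), and it was the 1 gene of the list called after 1 h (0.74) and after 6 h (0.75), where 0.0923% and 0.041% of all tested genes were. Slc3a2, the heavy chain that partners Slc7a11, stood at 206 and 240 CPM with DMSO and 269 and 241 CPM with SFN (0.19, SE 0.17, adjusted p = 0.622), so that the heavy chain was not called where the light chain rose. The SFN effects on Chac1 and Slc1a4 were smaller at 6 h than under isosmotic conditions (differences of -1.82 and -0.91, edgeR adjusted p = 0.00471 and 0.0123).

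In Nrf2-/- against WT cells with SFN, 9 of 26 were called under isosmotic conditions, 3 higher and 6 lower, and 10 of 26 after 1 h, 4 higher and 6 lower. These shares are near the 34.1% and 31.5% of all tested genes. Cth, which makes cysteine from cystathionine, stood at 55.5 and 60.7 CPM in isosmotic Nrf2-/- cells against 9.49 and 10.1 CPM (log2 fold change 2.57, SE 0.22, edgeR adjusted p = 3.74e-07), and was higher after 1 h as well (2.29, SE 0.21). Slc1a4 (0.75 and 0.91) and Slc25a40, a carrier of glutathione into mitochondria (0.68 and 0.53), were higher at both times. Lower at both times were Esd (-1.91 and -1.68), Ggt7 of the gamma-glutamyltransferase family (-1.97 and -1.75), the 5-oxoprolinase Oplah (-1.86 and -1.37) and Hagh, which frees glutathione from lactoylglutathione (-0.80 and -0.74). At 1 h the 2 Nrf2-/- libraries lay apart for Cth (59.9 and 39.3 CPM), Ggt7 (2.86 and 1.07 CPM) and Hagh (18.7 and 10.8 CPM). Slc1a1, a transporter of glutamate and cysteine, had 62 to 73 counts in each WT SFN library at these times and 0 counts in each of the 4 Nrf2-/- libraries. Slc3a2 stood at 253 and 256 CPM in isosmotic Nrf2-/- cells and at 329 and 196 CPM after 1 h, and was not called.

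After 6 h of stress 17 of 26 genes were called with DMSO, 9 higher and 8 lower, and 18 of 26 with SFN, 8 higher and 10 lower, where 45.9% and 47.6% of all tested genes were called. Hagh rose with DMSO (1.30, SE 0.20) and with SFN (1.49, SE 0.21), and Slc3a2 rose with DMSO (0.59, SE 0.17, edgeR adjusted p = 0.0113). Chac2, another intracellular glutathione-degrading enzyme, fell in both (-1.25 and -1.31), as did the glutaredoxin Glrx (-1.25 and -0.82). Slc3a1, a partner in another cystine transporter, rose from 7 and 4 counts to 167 and 119 counts with DMSO. Anpep and Ggt5 are also abundant in proximal tubule or stroma in tissue. They had 0 to 14 counts under isosmotic conditions and 9 to 41 after 6 h, beside the marker transcripts named above. Both were already called higher after 1 h with DMSO, at 39 and 25 counts for Anpep and 16 and 11 for Ggt5. After 1 h of stress 3 of 26 were called with DMSO, 4 with SFN and 3 in Nrf2-/- cells, near the 11.2%, 9.52% and 7.17% of all tested genes. In the 11 comparisons given for this list its median lay between -0.12 and 0.14 on the log2 scale, and that of all tested genes between -0.02 and 0.09.

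**Figure D5:**
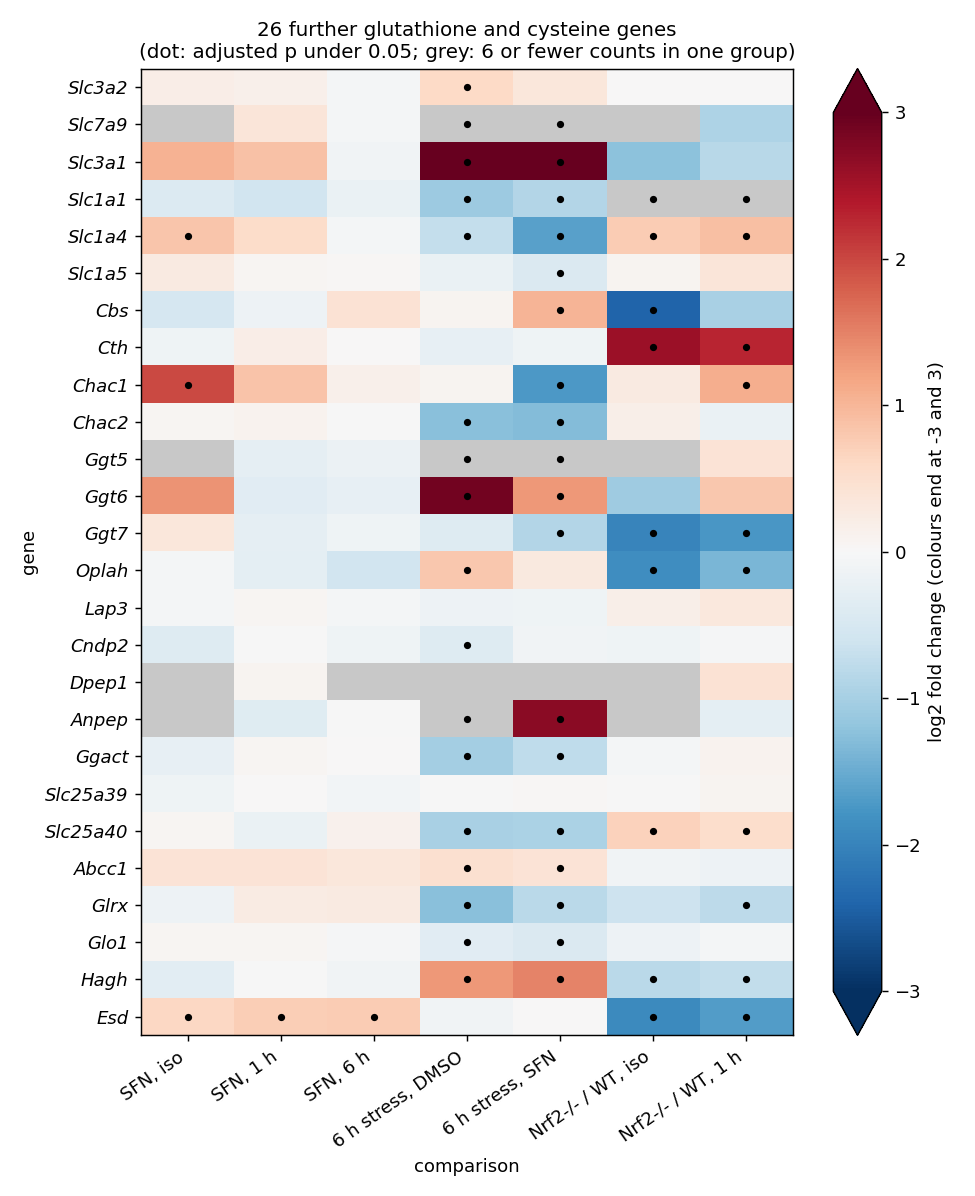
Log2 fold change (colour, ending at -3 and 3) of 26 further genes of cysteine and glutathione metabolism (rows) in 7 comparisons (columns; iso means isosmotic); dots mark adjusted p under 0.05 and the 18 of 182 grey fields have 6 or fewer counts over the 2 libraries of one group. Cth stands out as higher and Esd, Ggt7 and Oplah as lower in Nrf2-/- cells, and 6 h of stress has the most dots.

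Among 6 genes for regulators of these pathways, Nfe2l2 and Atf4 had log2 fold changes of -0.07 and 0.40 with SFN under isosmotic conditions and were not called. In isosmotic Nrf2-/- cells 4 of the 6 were called against WT cells with SFN, where 34.1% of all tested genes were. Nfe2l2 and Keap1 were lower. Ddit3 (CHOP, induced downstream of ATF4) was higher, at 19.6 and 28.8 CPM against 15.2 and 12.6 CPM (0.80, SE 0.26, edgeR adjusted p = 0.0241). After 1 h its Nrf2-/- libraries stood apart, at 30.5 and 16.8 CPM. Under isosmotic conditions Bach1, a repressor at AREs, was higher too (0.62, SE 0.16, edgeR adjusted p = 0.00685). Atf4, whose protein is regulated mainly through translation, stood at 383 and 407 CPM against 437 and 414 CPM and was not called. After 6 h in WT cells with DMSO, Nfe2l2 (0.90) and Mafg, its small Maf partner (1.12), were higher and Keap1, which directs Nrf2 to degradation, was lower (-1.05), and the same 3 moved likewise with SFN (1.02, 1.06 and -1.30). Atf4 was called higher at 6 h with DMSO (0.61, SE 0.13, edgeR adjusted p = 0.00122) and not with SFN (0.25, adjusted p = 0.116). The test of the difference between these 2 changes called 0 of the 6 regulators. At 6 h Atf4 stood at 489 and 496 CPM with DMSO and 495 and 520 CPM with SFN.

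The 7 genes followed different courses over the 16 libraries. On log2 CPM, Gclc and Gclm had a Pearson correlation of 0.84 with each other, and Slc7a11 had one of -0.19 with Gclc and 0.00 with Gclm. Among about 12290 genes with a mean of at least 50 counts, those most like Gclm were Hmox1 (0.952), Srxn1 (0.945) and G6pdx (0.935). Those most like Slc7a11 were Abcb1b (0.923), Kdelr2 (0.922) and Dock8 (0.912), and those most like Gclc were Gpr137b (0.919), Lysmd1 (0.917) and Pcx (0.899). Gss was followed most closely by Them6 (0.987), Atpaf2 (0.986) and Zfp385a (0.978), and Gsr by P4ha2 (0.929), Chpf2 (0.918) and Pafah2 (0.903). For Ggct they were Trmt112-ps2, Magoh and Pdcl3 (0.903 to 0.916), and for Ggt1 Msrb1, Lrpap1 and Eya2 (0.923 to 0.930). The points are 8 conditions in pairs of libraries from 2 lines, so these values describe shared condition means.

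By GENCODE M21 on GRCm38, the genes lie at chr3:49892526-50443614 (Slc7a11, minus strand), chr9:77754535-77794485 (Gclc, plus), chr3:122245557-122270732 (Gclm, plus), chr2:155563181-155592810 (Gss, minus), chr8:33652523-33698163 (Gsr, plus), chr6:54982580-54992950 (Ggct, minus) and chr10:75561604-75586200 (Ggt1, plus). On the other strand Gss overlaps Acss2 and antisense genes, Gclm overlaps Gm17494, and Slc7a11 overlaps Gm37854, Gm37826 and Gm2345. On the same strand Slc7a11 overlaps Gm37692 and Gm37498, Gclm overlaps Gm6061, and Gsr overlaps Gm24727. Whether counting used strand is not given in the sources used here, so reads of partners on the other strand cannot be told apart. Reads of partners on the same strand could not be told apart by strand in either case.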

How the data were processed

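RNA was measured in 16 libraries of mIMCD3 cells. The authors sequenced total RNA on the Illumina NovaSeq platform, aligned reads to mm10 and deposited read counts per gene symbol from featureCounts, 1 library at a time and without normalization. The paper names Hisat2 as the aligner and the submitters' processing notes list Bowtie2. Versions, annotation and strand setting are not given in the sources used here. Most counts from 1 to 10 were even, so a count may be a read of a pair rather than a fragment. The labels name primary cells in 1 protocol and mIMCD3 elsewhere, and mIMCD3 was used. Lines without a gene name were left out.

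Groups came from the sample labels. The 7 genes and the lists were chosen with earlier results of these data known. The 26 further genes, 6 regulators and markers were listed by function, and for each of the 7 genes the 3 genes with the highest Pearson correlation were named. Counts were tested in R 4.3.3 with edgeR 4.0.16 (quasi-likelihood, robust, TMM, filter on low counts) on all 16 libraries with 1 coefficient per condition, in 17 comparisons, each adjusted by Benjamini-Hochberg over 19509 genes at 0.05. CPM used TMM scaling. SD refers to the 2 libraries of a condition. SE and 95% intervals came from the edgeR fit, whose estimate of the spread of a gene was shared over all 16 libraries. An exact permutation test of 2 against 2 libraries cannot go below p = 0.333 and was not used. The procedure was tested on simulated data. Alternatives were DESeq2 1.42.0, RLE size factors, no filter, no robust moderation, the replicate block, fewer libraries in the fit and each library left out.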

Additional observations from a re-analysis of the deposited data

Results flagged for a closer look

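The effect of SFN on the 2 subunits of glutamate-cysteine ligase differed between 6 h of hyperosmotic stress and isosmotic conditions by a test of the difference itself. It was smaller at 6 h by a log2 difference of -1.12 for Gclc (edgeR adjusted p = 0.000576) and of -0.63 for Gclm (adjusted p = 0.0387). In all 4 SFN libraries of the 2 times Gclc lay above the DMSO libraries of the same time. The Gclm difference lost its call without any 1 of the 8 libraries involved (-0.72 to -0.54).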

How the results depend on the processing

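Of 119 values (7 genes in 17 comparisons), 113 kept their direction and side of the threshold with DESeq2, 111 with no filter, 118 with no robust moderation, 111 with RLE size factors and 113 with the replicate block; 106 of 118 did so with only the libraries compared, where Ggt1 failed the filter for 1 h of stress in Nrf2-/- cells, 70 of 77 with only the 12 WT libraries and 83 of 91 without the Nrf2-/- 1 h pair. A sign was compared only where a value was called or exceeded its SE in both fits. The 1 reversal was Slc7a11 after 1 h in Nrf2-/- cells, -0.52 without replicate 2 and 0.54 without replicate 1. The cause of these changes was not tested.

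The number of the 7 genes called changed with the setting, mainly as follows. For 1 h of stress with DMSO it was 0 with DESeq2, no filter, no robust moderation, the replicate block and RLE, and 0 to 0 with a library left out. For 1 h with SFN it was 0 with no filter and RLE, 2 with only the 12 WT libraries, only the libraries compared and without the Nrf2-/- 1 h pair, and 0 to 1 with a library left out. In Nrf2-/- cells it was 0 to 2 with a library left out, as was the difference of this effect from WT. For 6 h against 1 h with DMSO it was 1 with the replicate block and RLE, 3 without the Nrf2-/- 1 h pair, with only the 12 WT libraries and with only the libraries compared, and 1 to 1 with a library left out; with SFN it was 5 with only the 12 WT libraries and with only the libraries compared, and 3 to 4 with a library left out. For SFN at 6 h it was 2 with no filter, only the 12 WT libraries, only the libraries compared and without the Nrf2-/- 1 h pair, 0 with the replicate block and RLE, and 0 to 0 with a library left out. For the SFN effect at 6 h against isosmotic it was 1 with RLE and 3 with DESeq2 and no filter. It was also 3 with only the 12 WT libraries, with only the libraries compared and without the Nrf2-/- 1 h pair. For Nrf2-/- against WT with SFN it was 3 with only the libraries compared at 1 h, 3 to 5 with a library left out under isosmotic conditions and 5 to 7 at 1 h. Against WT with DMSO it was 1 with only the libraries compared at 1 h, and 3 to 5 and 3 to 6 with a library left out. For SFN against DMSO it was 4 under isosmotic conditions with only the 12 WT libraries and without the Nrf2-/- 1 h pair. At 1 h it was 4 in the same fits, with DESeq2 and with only the libraries compared. For 6 h against isosmotic with DMSO it was 2 with DESeq2, no filter and RLE. With SFN it was 5 without the Nrf2-/- 1 h pair. For 6 h against 1 h with SFN it was also 3 with DESeq2, no filter, the replicate block and RLE.

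All genes called for SFN under isosmotic conditions numbered 555, against 1126 with DESeq2, 1103 with no filter, 2786 without the Nrf2-/- 1 h pair and 171 to 302 with a library left out. At 1 h and 6 h they numbered 18 and 8, against 53 and 22 with DESeq2 and 92 and 41 without the Nrf2-/- 1 h pair. Replicate numbers did not pair the libraries: over 28 pairs of conditions, deviations of same-numbered libraries correlated at -0.0794 to 0.123 (median -0.00765). Without TMM, 23 of 56 mean CPM values moved by more than their SD, by at most 10%. The 2 libraries per condition limit every test, and the low counts of Ggt1 limit its own.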
